A study of Mus musculus with 12 samples.

Results

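The genes described here run the cell division cycle and DNA replication. There were 56 of them, chosen by symbol: cyclins with their kinases, inhibitors of those kinases, E2f and pocket protein genes, origin licensing and nucleotide genes, mitosis genes and the Myb and Foxm1 genes. The rule that names them uses symbols and no measured value, but the list was drawn up with earlier results of these data known. Probe sets with a single gene symbol measured 55 of the 56, through 59 probe sets, among 19938 genes and 35557 probe sets in all. Ccnb1, the mitotic cyclin B1, had no such probe set and is not analysed here.

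Messenger RNA came from Esrrb_R cells, a mouse embryonic stem cell line that is 1 rescue clone of AINV15 cells and expresses the Dox-dependent activator rtTA. A short hairpin RNA against the endogenous Esrrb is present in all groups, and an exogenous, hairpin-resistant Esrrb is made only while doxycycline (Dox) is supplied. The groups were cultures with 1 µg/ml Dox (day 0) and cultures deprived of it for 1, 3 or 5 days, with 3 biological replicates a day and 12 Affymetrix Mouse Gene 1.0 ST arrays in all. The line is kept on mouse embryonic fibroblasts, and the methods place the experiment itself on gelatin, in serum with Lif and with no feeder layer. Every culture after day 0 lacked Dox and was older, so loss of Esrrb, absence of Dox and time in culture cannot be told apart. The arrays read RNA from whole cultures, in which fewer cells of a kind or of a cycle phase and less RNA per cell cannot be told apart.

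Cells divide by switching cyclin-dependent kinases (Cdks) on and off in sequence. D cyclins with Cdk4 or Cdk6, and then cyclin E with Cdk2, phosphorylate the pocket proteins Rb1, Rbl1 and Rbl2, which frees E2f factors to transcribe replication genes, while inhibitors of the Ink4 and Cip/Kip families hold the kinases back. Mouse embryonic stem cells are known for a short first gap phase, low D cyclin and inhibitor activity and cyclin E activity that varies little over the cycle, and they acquire a longer gap phase under cyclin D and inhibitor control as they differentiate. Genes of DNA synthesis are typically transcribed through E2F sites, and genes of mitosis through CHR elements bound by complexes that contain Mybl2 and Foxm1.

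Promoters of the set were searched for these motifs because the choice of genes did not use sequence. RefSeq windows (GRCm38.p6, 250 bases before to 50 after the start site) were held for 42 of the 55 measured genes, and the same windows for 15614 of all measured genes. The letters searched on both strands were TTTCCCGC, TTTCGCGC, TTTGCCGC or TTTGGCGC for E2F sites, TTTGAA or TTCGAA for the CHR element, and CCAAT for the CCAAT box. None of these motifs contains another, although matches on opposite strands can share bases. An E2F site was found in 14 of the 42 genes (33.3%), against 3.5% of all measured genes with a window. The CHR letters stood in 17 (40.5%), against 19.0%, and CCAAT in 30 (71.4%), against 41.7%. Licensing genes held E2F sites in 6 of 8, and mitosis genes held both CHR and CCAAT letters in 7 of 7 and an E2F site in 0 of 7. Promoters of 5 genes are printed as the 250 bases upstream of the start site, 5′ to 3′ on the strand of the gene, with every match in capitals. Mcm6 shows 3 E2F matches of a licensing gene (chr1:128359706-128359955 on the minus strand), Cdk1 carries both motif types (chr10:69352913-69353162 on the minus strand), Cdc20 is a mitosis gene (chr4:118437344-118437593 on the minus strand), and E2f7 (chr10:110745189-110745438 on the plus strand) and E2f8 (chr7:48881597-48881846 on the minus strand) are paralogs whose levels moved in opposite directions below.
Mcm6: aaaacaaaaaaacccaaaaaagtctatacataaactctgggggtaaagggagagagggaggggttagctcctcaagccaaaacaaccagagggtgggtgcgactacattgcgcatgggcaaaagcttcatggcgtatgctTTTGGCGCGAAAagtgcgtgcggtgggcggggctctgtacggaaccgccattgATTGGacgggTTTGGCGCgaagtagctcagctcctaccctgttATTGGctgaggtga
Cdk1: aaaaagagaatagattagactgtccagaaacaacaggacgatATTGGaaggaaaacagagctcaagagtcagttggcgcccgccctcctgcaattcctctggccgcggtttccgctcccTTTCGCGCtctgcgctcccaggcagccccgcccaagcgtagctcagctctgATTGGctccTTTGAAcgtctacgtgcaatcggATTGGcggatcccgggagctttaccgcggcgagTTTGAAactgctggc
Cdc20: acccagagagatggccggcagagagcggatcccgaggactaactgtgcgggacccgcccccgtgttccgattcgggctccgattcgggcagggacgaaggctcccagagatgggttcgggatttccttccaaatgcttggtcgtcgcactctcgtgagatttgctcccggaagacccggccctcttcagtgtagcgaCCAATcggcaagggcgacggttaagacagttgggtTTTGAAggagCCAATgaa
E2f7: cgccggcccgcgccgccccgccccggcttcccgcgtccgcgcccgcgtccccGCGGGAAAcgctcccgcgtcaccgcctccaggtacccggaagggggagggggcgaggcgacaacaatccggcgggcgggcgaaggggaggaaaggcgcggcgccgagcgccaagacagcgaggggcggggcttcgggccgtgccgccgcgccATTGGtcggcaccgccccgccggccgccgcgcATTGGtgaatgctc
E2f8: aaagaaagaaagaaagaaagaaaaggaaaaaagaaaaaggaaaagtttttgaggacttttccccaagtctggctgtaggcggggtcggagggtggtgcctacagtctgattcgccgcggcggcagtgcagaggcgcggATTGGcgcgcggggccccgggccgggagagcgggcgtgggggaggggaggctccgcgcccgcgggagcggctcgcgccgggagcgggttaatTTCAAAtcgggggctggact

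In these stretches the E2F matches of Mcm6 start 110, 106 and 47 bases before the start site, the first 2 of them overlapping on opposite strands. The E2F match of Cdk1 starts 131 bases before it, with CHR letters at 71 and 15 bases. Cdc20 has its CHR letters 18 bases before the start, E2f7 has an E2F match at 198 bases, and E2f8 has CHR letters at 20 bases. A match is a description of the letters and not of a bound site.

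Values are log2 signals, 1 per gene and array after normalization by the Robust Multichip Average (RMA), and a difference of 1 in log2 signal is a 2-fold change. Such a signal can be set against other arrays for the same gene, never against another gene. A gene was called higher or lower when its limma p, adjusted over all 19938 genes by the method of Benjamini and Hochberg, was below 0.05. The standard error of a log2 difference between 2 days lay between 0.05 and 0.12 for these genes, with a median of 0.06. Esrrb had log2 signals of 11.54 to 11.63 at day 0, 9.09 to 9.16 at day 1, 8.07 to 8.34 at day 3 and 8.13 to 8.28 at day 5, so the label of every array fits its Dox state. Of 10 embryonic stem cell markers, 3, 6 and 8 were lower at days 1, 3 and 5 and 1 was higher on each day. Of all genes, 4.48%, 13.1% and 17.6% were lower and 6.45%, 13.5% and 17.4% higher on these days. Fibroblast markers, measured for 15 of 16, averaged log2 signals of 7.37 to 7.49 over the day 0 arrays, 7.35 to 7.37 at day 1, 6.99 to 7.02 at day 3 and 7.24 to 7.34 at day 5. Their collagen genes were not near the floor of the arrays (Col1a2 at 9.36 to 9.68 at day 0).

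As a whole the set moved by small amounts in both directions. One day after Dox removal, 4 of the 55 genes (7.3%) were higher and 4 (7.3%) lower, against 6.45% and 4.48% of all genes. By day 3, 10 (18.2%) were higher and 8 (14.5%) lower, against 13.5% and 13.1% of all genes. By day 5, 14 (25.5%) were higher and 10 (18.2%) lower, against 17.4% and 17.6%. Most of these shares lay near those of all genes, and the widest gap was that of higher calls at day 5. With the dimmest 25% of genes left out, 16 members were higher and 11 lower at day 5, against 23.6% and 23.7% of genes kept. Their median log2 change was 0.01, 0.01 and 0.05 at days 1, 3 and 5, against 0.01, 0.00 and -0.02 for all genes. When every array was shifted to the same median, the day 3 split was 7 higher and 11 lower in place of 10 and 8.

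Over the time course 34 of the 55 genes passed the moderated F test, against 45.6% of all genes. Against day 0, 31 (56.4%) were called on at least 1 day, against 45.1% of all genes. Only 1 member lay among the dimmest 25% of genes, and with these left out 37 members passed the F test, against 61.6% of genes kept. The changes stayed small: Myb at day 3 was the 1 member past 2-fold against day 0, where 0.316% of all genes passed 2-fold at day 1, 1.72% at day 3 and 3.40% at day 5. Day means spanned under 0.2 in log2 signal for 19 members (34.5%), against 39.7% of all genes, and at least 0.5 for 10 (18.2%), against 17.2%. The 10 wide-ranging members were Ccnd1, Ccnd2, Cdk6, Ccne1, Ccne2, Cdkn2b, E2f8, Rbl2, Mybl2 and Myb. None of them is in the B cyclin and Cdk1, licensing, nucleotide or mitosis groups. Outside the set, the replication genes Pold2 and Rpa2 of the wider list below ranged as widely. Between consecutive days, 5 members were higher and 10 lower at day 3 against day 1 (9.20% and 11.6% of all genes), a split that became 8 and 8 after a second quantile normalization. At day 5 against day 3, 10 were higher and 7 lower (13.0% and 12.2% of all genes).

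**Figure D1:**
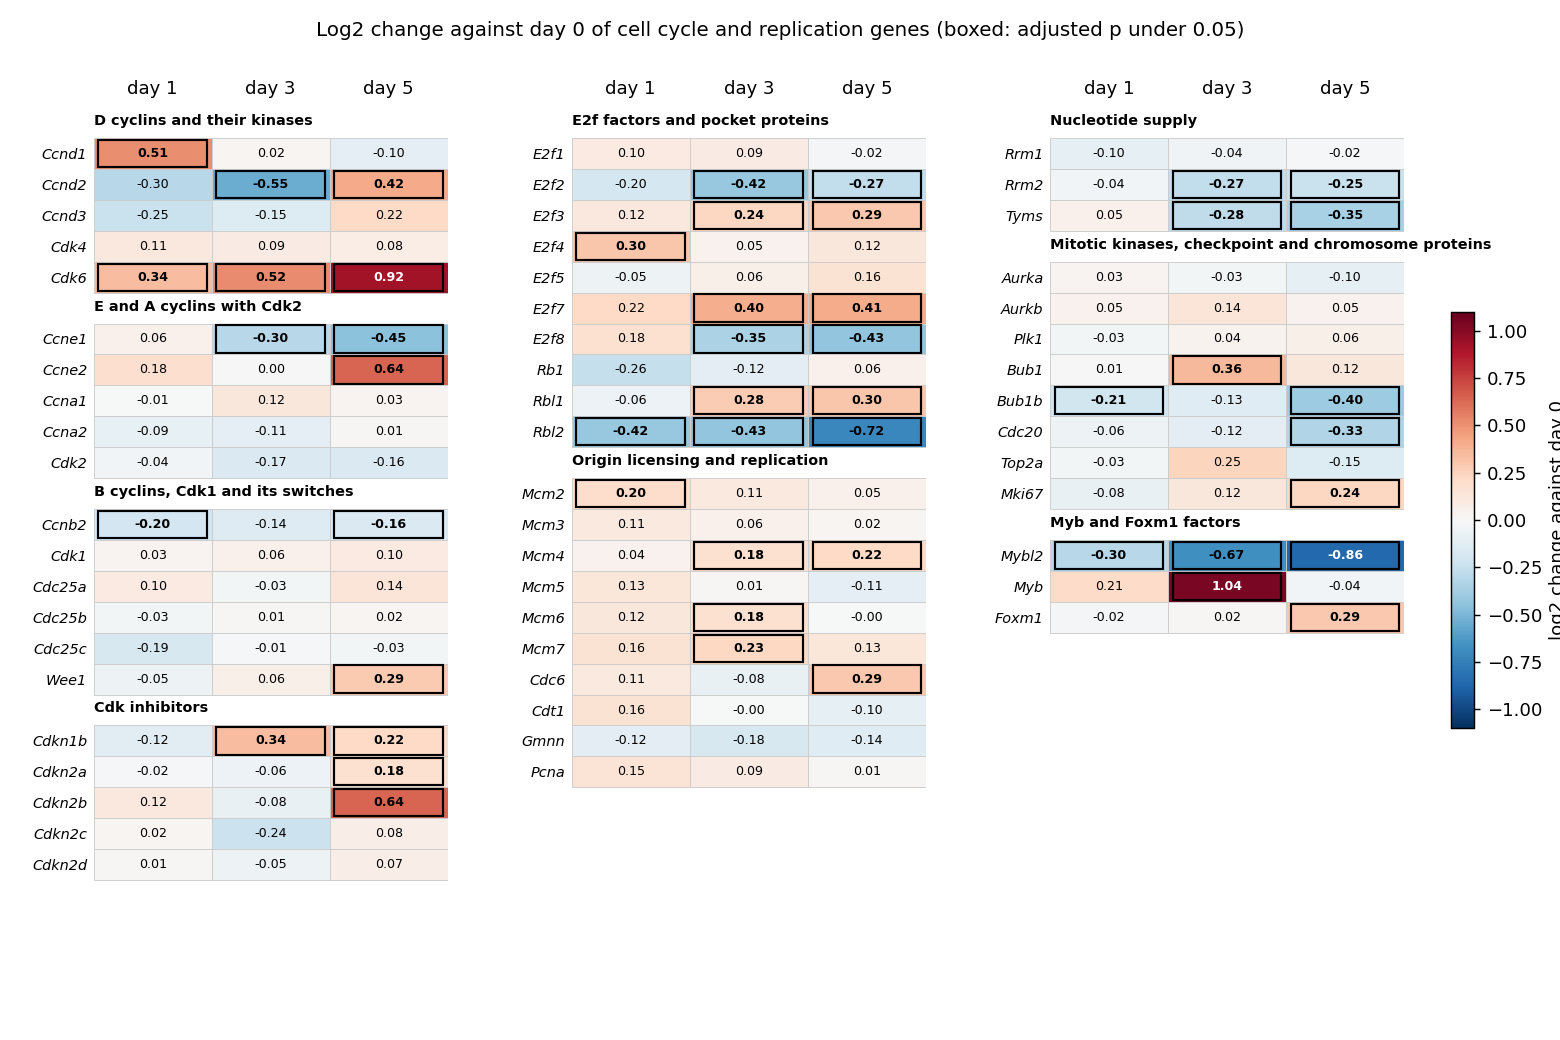
Log2 change against day 0 (colour and number, red higher and blue lower) for the 55 measured genes, by role, at days 1, 3 and 5, with a box where the limma adjusted p was below 0.05. The darkest cells belong to Cdk6 (0.92 at day 5), Myb (1.04 at day 3) and Mybl2 (-0.86 at day 5).

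The D cyclin arm carried several of the largest changes, and each of its cyclins had its own time course. Cdk6, a kinase partner of D cyclins, had log2 signals of 9.28, 9.12 and 9.08 at day 0, 9.50, 9.55 and 9.45 at day 1, 9.56, 9.71 and 9.75 at day 3 and 10.22, 9.88 and 10.15 at day 5. Every array of a later day lay above every array of the day before. Its log2 change was 0.34, 0.52 and 0.92 (SE 0.09 each, limma adjusted p = 0.028, 0.00074 and 3.2e-06), and at day 5 the level was 1.89-fold that of day 0. The day 1 call was lost without day 0 replicate 2 or 3 or without any 1 of the day 1 arrays (highest adjusted p over all settings 0.095). Cdk4, its paralog and the other partner of D cyclins, changed by 0.08 at day 5 (95% interval -0.04 to 0.21) and was called on no day.

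Ccnd2, encoding cyclin D2, dipped and then rose past its starting level. Its log2 signals were 10.97, 10.84 and 10.99 at day 0, 10.60, 10.68 and 10.61 at day 1, 10.49, 10.13 and 10.54 at day 3 and 11.12, 11.46 and 11.47 at day 5. All day 3 arrays lay below and all day 5 arrays above those of day 0. The log2 change was -0.30 at day 1 (adjusted p = 0.1), -0.55 at day 3 (adjusted p = 0.0023) and 0.42 at day 5 (adjusted p = 0.0094, SE 0.11 each, limma). Between day 3 and day 5 it rose by 0.96 on the log2 scale (adjusted p = 3.6e-05, limma), 1.95-fold.

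Part of the fibroblast marker list was also lowest at day 3. Against day 0, 9 of the 15 were lower and 1 higher at day 3, against 13.1% and 13.5% of all genes. At day 5 against day 3, 8 were higher and 1 lower, against 13.0% and 12.2% of all genes. At day 5 against day 0, 2 were higher and 3 lower, against 17.4% and 17.6% of all genes. Col1a2, a fibrillar collagen, changed by -1.44 at day 3 and by -0.21 at day 5 against day 0, and Pdgfra, a receptor also made by mesoderm and primitive endoderm, by -0.60 and 0.10. Prrx1, a mesenchymal factor, stayed low at day 5 (-1.27). The part of fibroblast RNA in the Ccnd2 course was not tested.

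Ccnd1, encoding cyclin D1, was raised for a single time point. Its log2 signals were 10.04, 10.01 and 10.09 at day 0, 10.54, 10.57 and 10.56 at day 1, 10.02, 10.11 and 10.07 at day 3 and 10.08, 9.75 and 9.99 at day 5. The day 1 arrays stood clear of all 9 others. The rise of 0.51 at day 1 (SE 0.07, adjusted p = 0.00074) was followed by a fall of 0.49 between day 1 and day 3 (adjusted p = 0.00048, limma). Ccnd3, encoding cyclin D3, was not called against day 0 (-0.25, -0.15 and 0.22 at days 1, 3 and 5, SE 0.09), and rose by 0.36 between day 3 and day 5 (adjusted p = 0.0086, limma).

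The E cyclins, which activate Cdk2 at the start of DNA synthesis, moved in opposite directions by day 5. Ccne1 (cyclin E1) had log2 signals of 11.40, 11.49 and 11.38 at day 0, 11.45, 11.47 and 11.54 at day 1, 11.11, 11.16 and 11.10 at day 3 and 11.06, 10.88 and 10.99 at day 5. The arrays of days 3 and 5 lay below all those of days 0 and 1, with a log2 change of -0.30 at day 3 (adjusted p = 0.0019) and -0.45 at day 5 (adjusted p = 5.5e-05, SE 0.06, limma). Ccne2 (cyclin E2) had signals of 8.60, 8.76 and 8.43 at day 0, 8.78, 8.85 and 8.71 at day 1, 8.64, 8.46 and 8.70 at day 3 and 9.31, 9.21 and 9.20 at day 5. Only its day 5 arrays stood apart, 0.64 above day 0 (SE 0.09, adjusted p = 6.1e-05, limma), a 1.56-fold rise.

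Their kinase Cdk2 read 11.50, 11.60 and 11.48 at day 0, 11.49, 11.50 and 11.48 at day 1, 11.37, 11.34 and 11.38 at day 3 and 11.30, 11.48 and 11.33 at day 5. Its changes of -0.17 at day 3 and -0.16 at day 5 missed the threshold (adjusted p = 0.057 and 0.055, limma). Ccna2, encoding the cyclin A of dividing somatic and embryonic cells, differed from day 0 by 0.01 at day 5 (95% interval -0.10 to 0.13). Ccna1, the cyclin A of germ cells, was the 1 member in the dimmest 25% of genes and was called on no day.

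**Figure D2:**
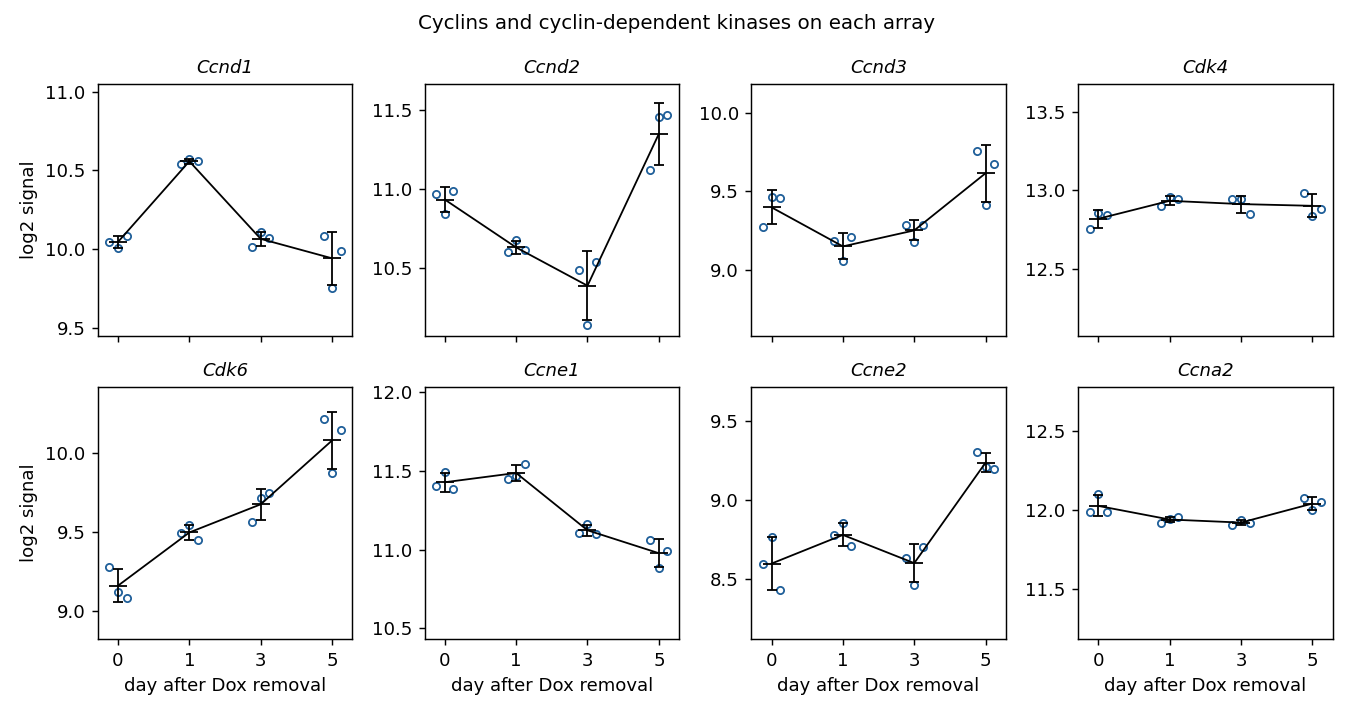
Log2 signal (y axis, a span of 1.6 in every panel) of 8 cyclin and kinase genes by day after Dox removal (x axis). Circles are single arrays, and lines join day means with their SD (n = 3). Ccnd1 peaks at day 1, Ccnd2 has its lowest arrays at day 3 and its highest at day 5, Cdk6 climbs on each day, Ccne1 and Ccne2 part at day 5, and Cdk4 and Ccna2 are nearly level.

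The set held 5 measured Cdk inhibitors, and every call among them against day 0 was upward, 1 at day 3 and 3 at day 5. A further inhibitor outside the set, Cdkn1c, is given with the wider regulator list. The day 5 calls were 60.0% of the list, with 0 lower and a median log2 change of 0.18, where all genes had 17.4% higher, 17.6% lower and a median of -0.02. The calls of Cdkn1b and Cdkn2a were both lost without day 0 replicate 1 or 3, without day 5 replicate 2 or 3 or with equal array medians, which leaves Cdkn2b of the 3. Cdkn2b, which encodes the Ink4 inhibitor p15 of Cdk4 and Cdk6, had log2 signals of 7.41, 7.47 and 7.62 at day 0, 7.58, 7.67 and 7.61 at day 1, 7.46, 7.26 and 7.53 at day 3 and 8.20, 8.14 and 8.09 at day 5. The day 5 arrays lay above all others, and the log2 change against day 0 was 0.64 (SE 0.08, adjusted p = 2.2e-05, limma).

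Cdkn1b, encoding the Cip/Kip inhibitor p27, rose earlier. It read 8.44, 8.65 and 8.54 at day 0, 8.43, 8.41 and 8.43 at day 1, 9.02, 8.79 and 8.83 at day 3 and 8.69, 8.85 and 8.75 at day 5. Its 2 probe sets had the same order of days. The arrays of days 3 and 5 were above all those of days 0 and 1, with a log2 change of 0.34 at day 3 (adjusted p = 0.0044) and 0.22 at day 5 (adjusted p = 0.035, SE 0.07, limma). The day 5 call was lost under 8 of 21 alternative settings, equal array medians and leaving out day 0 replicate 1 or 3 or day 5 replicate 2 or 3 among them (highest adjusted p 0.14).

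The other inhibitors of the set had smaller changes against day 0. Cdkn2a, the locus of p16 and p19Arf, read 7.05, 7.12 and 7.08 at day 0, 7.06, 6.98 and 7.17 at day 1, 6.98, 7.01 and 7.07 at day 3 and 7.22, 7.34 and 7.21 at day 5. Its difference of 0.18 at day 5 (adjusted p = 0.044, limma) was lost under 17 of 21 alternative settings, leaving out any 1 array of day 0, 3 or 5 or day 1 replicate 1 among them, and its difference of 0.24 between day 5 and day 3 (adjusted p = 0.013) under none. Cdkn2c, encoding the Ink4 inhibitor p18, read 6.94, 6.68 and 6.91 at day 0, 6.75, 6.89 and 6.95 at day 1, 6.61, 6.58 and 6.63 at day 3 and 6.83, 6.88 and 7.06 at day 5. It was lowest at day 3, where all arrays lay below all others. The change of -0.24 at day 3 against day 0 was not called (adjusted p = 0.05 after rounding, limma). At day 3 against day 1 it was called lower (-0.26, adjusted p = 0.044, limma). That call was lost without day 1 replicate 2 or 3 or any 1 of the day 3 arrays. Cdkn2c then rose by 0.32 between day 3 and day 5 (adjusted p = 0.013, limma, and 0.067 without day 5 replicate 3). Cdkn2d (p19 of the Ink4 family) was called in no comparison.

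**Figure D3:**
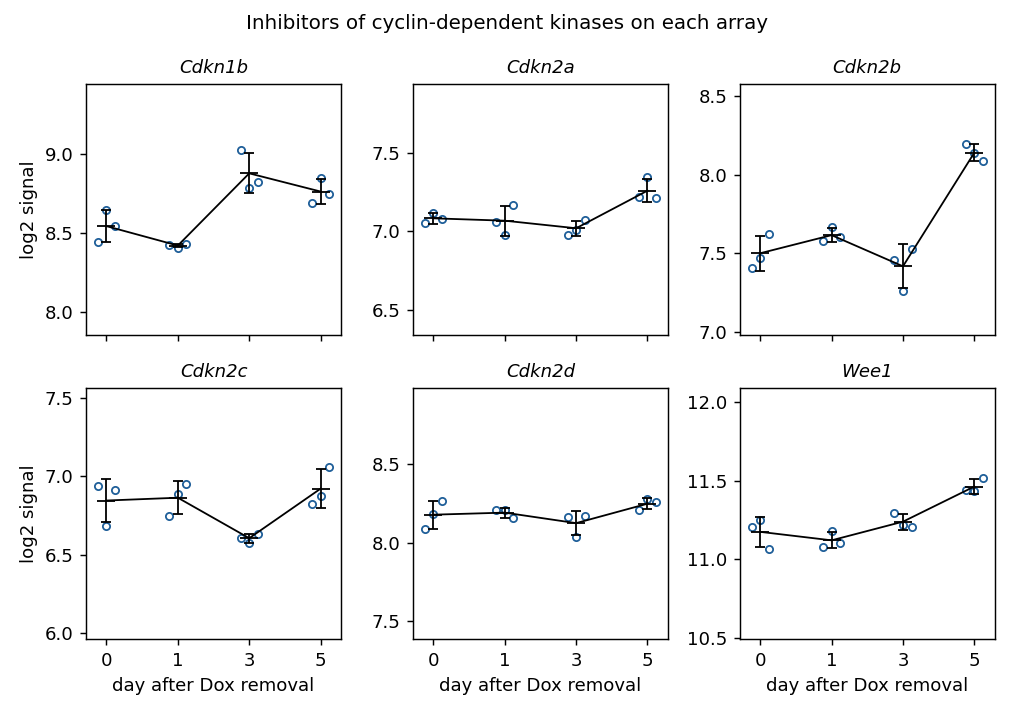
Log2 signal (y axis, a span of 1.6 in every panel) of the 5 measured Cdk inhibitor genes and of Wee1, a kinase that restrains Cdk1, by day after Dox removal (x axis). Circles are single arrays, and lines join day means with their SD (n = 3). Cdkn2b is level over days 0 to 3 and 0.64 above day 0 at day 5, while Cdkn1b is already raised at day 3.

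E2f and pocket protein genes were split by direction on days 3 and 5, with 3 of 10 higher and 3 lower on each (30.0% each way). Calls over all genes were also even, at 13.5% and 13.1% at day 3 and 17.4% and 17.6% at day 5. The atypical E2fs, E2f7 and E2f8, repress E2f targets late in the DNA synthesis phase, and here they went opposite ways. E2f8 read 9.43, 9.50 and 9.40 at day 0, 9.56, 9.71 and 9.60 at day 1, 9.16, 8.99 and 9.15 at day 3 and 9.02, 8.91 and 9.12 at day 5. Its arrays of days 3 and 5 lay below all earlier ones, with log2 changes of -0.35 and -0.43 (adjusted p = 0.0028 and 0.00035, SE 0.07, limma). E2f7 read 8.72, 8.46 and 8.58 at day 0, 8.81, 8.80 and 8.80 at day 1, 8.95, 9.02 and 9.00 at day 3 and 8.95, 8.97 and 9.05 at day 5. Its arrays of all later days lay above those of day 0, by 0.40 at day 3 and 0.41 at day 5 (adjusted p = 0.0005 and 0.00028, SE 0.07, limma).

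The pocket proteins p107 and p130 also diverged. Rbl1, encoding p107, which is most abundant in cycling cells, read 8.50, 8.54 and 8.36 at day 0, 8.44, 8.44 and 8.33 at day 1, 8.80, 8.72 and 8.72 at day 3 and 8.78, 8.73 and 8.81 at day 5. The later arrays cleared the earlier ones, with a log2 change of 0.28 at day 3 and 0.30 at day 5 (adjusted p = 0.0041 and 0.0018, SE 0.06, limma). Rbl2, encoding p130, which is typical of resting cells, was described after its values had been seen, and read 8.04, 8.20 and 8.02 at day 0, 7.77, 7.70 and 7.52 at day 1, 7.69, 7.45 and 7.80 at day 3 and 7.19, 7.46 and 7.44 at day 5. All later arrays lay below all day 0 arrays, with log2 changes of -0.42 and -0.43 at days 1 and 3 (adjusted p = 0.019 and 0.0063), the first of which lost its call without day 0 replicate 2 or day 1 replicate 3. At day 5 the level was 0.72 lower on the log2 scale, 1.65-fold (SE 0.10, adjusted p = 9.7e-05, limma). Rb1 itself had the widest error of the set (SE 0.12) and was not called, with changes of -0.26, -0.12 and 0.06 at days 1, 3 and 5.

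Among activating E2fs, E2f2 was lower at days 3 and 5 (log2 change -0.42 and -0.27), E2f3 was higher (0.24 and 0.29), and E2f1 was not called (0.10, 0.09 and -0.02 at days 1, 3 and 5). The day 3 call of E2f3 was lost without day 0 replicate 2 or 3 or any 1 of the day 3 arrays (highest adjusted p over all settings 0.13). E2f4, a partner of the pocket proteins, was higher at day 1 alone (0.30, adjusted p = 0.029, limma), a call lost without day 0 replicate 1 or any 1 of the day 1 arrays (highest 0.12). E2f5, another such partner, was called on no day.

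Myb and Foxm1 factors held the extremes of the set. Mybl2, encoding B-Myb, which drives mitosis genes in embryonic stem cells, read 11.17, 11.18 and 11.17 at day 0, 10.80, 10.88 and 10.92 at day 1, 10.52, 10.50 and 10.48 at day 3 and 10.25, 10.39 and 10.29 at day 5. Each day lay wholly below the day before. The log2 change was -0.30, -0.67 and -0.86 (SE 0.05, adjusted p = 0.0032, 1.4e-06 and 7.5e-08, limma), and its F test gave the smallest adjusted p of all members (2.3e-07). At day 5 the level was 1.82-fold lower than at day 0.

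Myb, the founding member of the family and best known from blood progenitors, peaked at day 3. It read 7.77, 7.93 and 7.72 at day 0, 7.93, 8.05 and 8.08 at day 1, 8.86, 8.88 and 8.81 at day 3 and 7.50, 7.96 and 7.83 at day 5. The day 3 arrays stood clear of all others, 1.04 above day 0 (2.06-fold, SE 0.10, adjusted p = 5.5e-06), and the level then fell by 1.09 between day 3 and day 5 (adjusted p = 5.9e-06, limma). Foxm1, which activates mitosis genes, read 8.81, 8.94 and 8.81 at day 0, 8.78, 8.84 and 8.88 at day 1, 8.89, 8.83 and 8.90 at day 3 and 9.16, 9.04 and 9.24 at day 5. It was higher at day 5 alone, by 0.29 (SE 0.06, adjusted p = 0.0028, limma), while Mybl2 was at its lowest.

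Between day 3 and day 5, 4 members turned, with a called change at day 3 against day 0 and a called change of the opposite sign at day 5 against day 3: Ccnd2, Mcm6, Bub1 and Myb (7.3%, against 7.39% of all genes). The fall of Mcm6 between day 3 and day 5 was lost without day 3 replicate 1 or 3 or day 5 replicate 2. Another 7 were higher at day 5 and not called before: Ccne2, Wee1, Cdkn2a, Cdkn2b, Cdc6, Mki67 and Foxm1 (12.7%, against 7.68% of all genes). The day 5 call of Cdkn2a was kept under 4 of 21 alternative settings, and those of the others under all. Cdc20 was the 1 member lower at day 5 alone (1.8%, against 7.4% of all genes). On no day were 24 members called against day 0 (43.6%, against 54.9% of all genes).

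**Figure D4:**
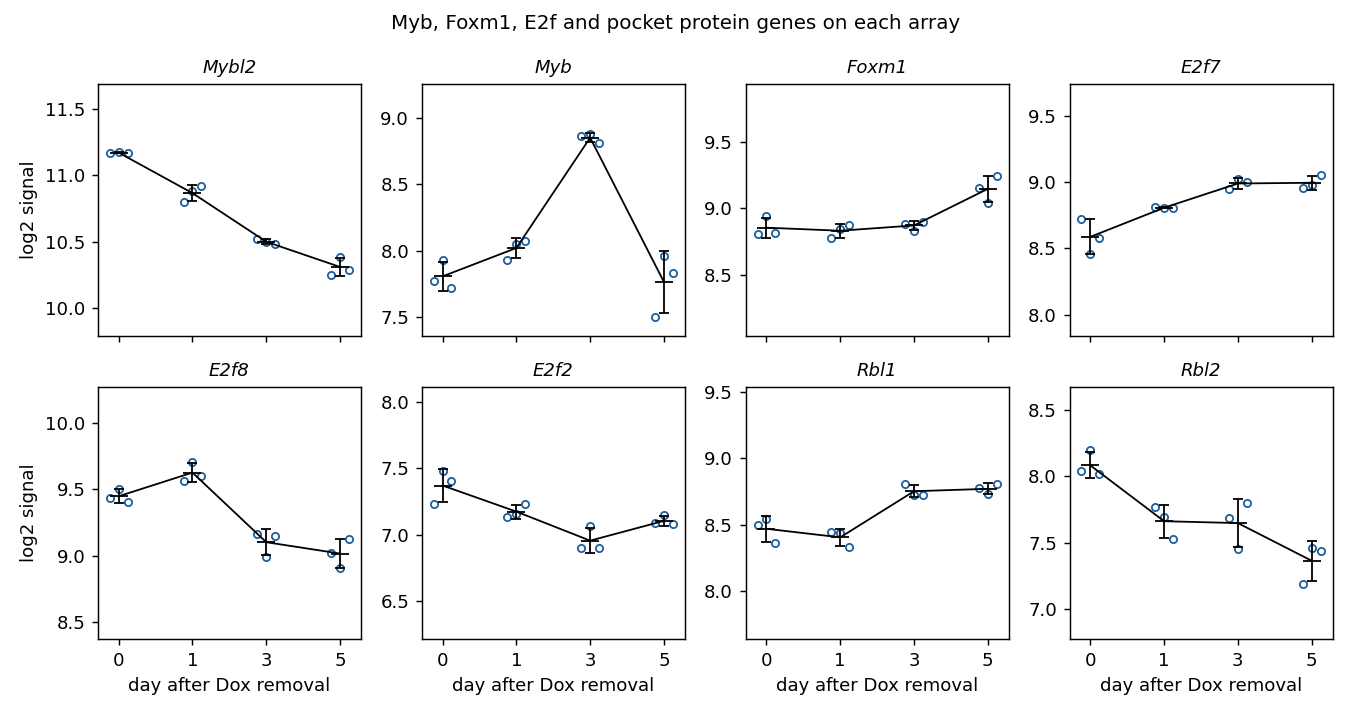
Log2 signal (y axis, a span of 1.9 in every panel) of 8 transcription factor and pocket protein genes by day after Dox removal (x axis). Circles are single arrays, and lines join day means with their SD (n = 3). Mybl2 declines on every day to 0.86 below day 0, Myb peaks at day 3, and E2f7 against E2f8 and Rbl1 against Rbl2 move in opposite directions.

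The 10 origin licensing and replication genes changed by small amounts. At day 1 their median log2 change was 0.13, against 0.01 for all genes, with 1 higher and 0 lower (6.45% and 4.48% of all genes). Their list mean was 11.396 to 11.445 over the day 1 arrays and 11.28 to 11.345 over those of day 0. At day 3, 3 were higher (30.0%, against 13.5% of all genes) and 0 lower (against 13.1%). At day 5, 2 of the 10 were higher (near the 17.4% of all genes) and 0 lower (against 17.6%), with a median log2 change of 0.02. Cdc6, the loader of the Mcm helicase, read 10.89, 10.91 and 10.98 at day 0, 11.04, 11.15 and 10.92 at day 1, 10.95, 10.79 and 10.79 at day 3 and 11.13, 11.23 and 11.29 at day 5. Its day 5 arrays lay above those of day 0, by 0.29 (SE 0.07, adjusted p = 0.0069, limma). Cdt1, its partner in loading, read 10.98, 11.05 and 11.10 at day 0, 11.18, 11.25 and 11.18 at day 1, 11.05, 11.06 and 11.01 at day 3 and 10.90, 10.99 and 10.96 at day 5. Cdt1 was highest at day 1 and was called only in its fall of 0.16 between day 1 and day 3 (adjusted p = 0.047, limma), a call lost under 11 of 21 alternative settings, leaving out any 1 array of day 1 or day 3, day 0 replicate 2 or day 5 replicate 3 among them.

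The Mcm genes encode the 6 subunits of the helicase, and their largest log2 change against day 0 was 0.23. Mcm5 read 11.11, 11.16 and 11.15 at day 0, 11.24, 11.29 and 11.29 at day 1, 11.18, 11.18 and 11.10 at day 3 and 11.06, 10.99 and 11.03 at day 5. It passed the F test (adjusted p = 0.0098) with no call on any day. Mcm7 was higher at day 3 (0.23), Mcm6 at day 3 (0.18) and not at day 5 (0.00), Mcm4 at days 3 and 5 (0.18 and 0.22) and Mcm2 at day 1 (0.20). Of these, the Mcm7 call held under every alternative. The day 3 calls of Mcm4 and Mcm6 were lost without day 0 replicate 1 or day 3 replicate 1 or 3 and with equal array medians, that of Mcm4 also without day 0 replicate 3 or day 3 replicate 2. The Mcm2 call was lost under 13 of 21 settings, leaving out any 1 array of day 0, 1 or 3 among them, and the Mcm4 call at day 5 under 1, a fit of the 2 days alone. Mcm3, Pcna (the sliding clamp of DNA polymerase) and Gmnn (geminin, the inhibitor of Cdt1) were called in no comparison.

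Of the 3 nucleotide genes, 2 were lower at days 3 and 5, where 13.1% and 17.6% of all genes were lower. Tyms, thymidylate synthase, read 10.43, 10.50 and 10.58 at day 0, 10.57, 10.48 and 10.62 at day 1, 10.21, 10.23 and 10.24 at day 3 and 10.17, 10.19 and 10.09 at day 5. Rrm2, the cycle-regulated subunit of ribonucleotide reductase, read 11.95, 12.06 and 11.99 at day 0, 11.93, 12.00 and 11.96 at day 1, 11.70, 11.68 and 11.81 at day 3 and 11.82, 11.71 and 11.73 at day 5. For both genes the arrays of days 3 and 5 lay below all those of days 0 and 1. The log2 change at day 5 was -0.35 for Tyms (adjusted p = 0.00038) and -0.25 for Rrm2 (adjusted p = 0.0041, SE 0.06 each, limma). Rrm1, the other subunit, read 12.22, 12.29 and 12.21 at day 0, 12.16, 12.14 and 12.13 at day 1, 12.24, 12.18 and 12.17 at day 3 and 12.22, 12.21 and 12.24 at day 5. Its log2 change at day 5 was -0.02 (95% interval -0.12 to 0.09).

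Cdk1, the kinase that drives mitosis, was level within the error, at 0.10 above day 0 on day 5 (95% interval -0.01 to 0.21). Among its regulators, Wee1, which phosphorylates and restrains Cdk1, read 11.21, 11.25 and 11.07 at day 0, 11.08, 11.18 and 11.11 at day 1, 11.30, 11.22 and 11.20 at day 3 and 11.44, 11.43 and 11.52 at day 5. Wee1 was higher at day 5 by 0.29 (SE 0.06, adjusted p = 0.0023, limma), with all day 5 arrays above all others. Ccnb2 (cyclin B2) read 11.74, 11.91 and 11.86 at day 0, 11.63, 11.63 and 11.65 at day 1, 11.73, 11.63 and 11.74 at day 3 and 11.69, 11.70 and 11.63 at day 5. Its calls at day 1 (-0.20, adjusted p = 0.044) and day 5 (-0.16, adjusted p = 0.046, limma) were lost under 13 and 15 of 21 alternative settings, among them leaving out day 0 replicate 2 or 3, any 1 of the day 1 arrays, day 3 replicate 1 or 3, or day 5 replicate 1 or 3. The phosphatases that oppose Wee1 were not called, and Cdc25a read 11.33, 11.38 and 11.29 at day 0, 11.40, 11.51 and 11.38 at day 1, 11.36, 11.28 and 11.26 at day 3 and 11.41, 11.43 and 11.56 at day 5. Cdc25b and Cdc25c changed by 0.02 and -0.03 at day 5.

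Of the 8 mitosis genes, 0 were higher and 1 lower at day 1, against 6.45% and 4.48% of all genes. At day 3, 1 was higher and 0 lower, against 13.5% and 13.1% of all genes. At day 5, 1 was higher and 2 lower, against 17.4% and 17.6%. At day 5 against day 3, 0 were higher and 4 lower, against 13.0% and 12.2% of all genes. These 4 were Bub1, Bub1b, Cdc20 and Top2a, and the calls of Cdc20 and Top2a were lost without day 5 replicate 3. Bub1b, encoding the checkpoint protein BubR1, read 12.04, 12.06 and 12.00 at day 0, 11.84, 11.84 and 11.78 at day 1, 11.93, 11.87 and 11.90 at day 3 and 11.54, 11.70 and 11.63 at day 5. All later arrays lay below those of day 0, by 0.21 at day 1 and 0.40 at day 5 (adjusted p = 0.024 and 6.4e-05, SE 0.05, limma), and the day 1 call was lost without day 0 replicate 1 or 2 or any 1 of the day 1 arrays. Bub1, its partner kinase, read 11.70, 11.72 and 11.65 at day 0, 11.71, 11.71 and 11.68 at day 1, 12.07, 12.07 and 12.00 at day 3 and 11.76, 11.93 and 11.75 at day 5. Its peak at day 3 was 0.36 above day 0 (adjusted p = 0.00048) and fell by 0.24 between day 3 and day 5 (adjusted p = 0.0089, limma).

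Mki67, whose protein coats mitotic chromosomes and marks cycling cells, was called higher at day 5. It read 10.86, 10.77 and 10.79 at day 0, 10.73, 10.73 and 10.72 at day 1, 10.94, 10.92 and 10.94 at day 3 and 11.03, 11.02 and 11.08 at day 5. The day 5 arrays lay above all others, 0.24 above day 0 (SE 0.05, adjusted p = 0.0019, limma). Cdc20, the activator of the anaphase-promoting complex, was lower at day 5 by 0.33 (adjusted p = 0.00037, limma). Aurka, Aurkb and Plk1, the kinases of spindle and chromosome movement, were called in no comparison, and Plk1 changed by 0.06 at day 5 (95% interval -0.06 to 0.18).

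Top2a, which untangles sister chromosomes, was measured by 2 probe sets that moved the same way between day 3 and day 5 by different amounts. The brighter one read 12.27, 12.27 and 12.28 at day 5, against 12.43, 12.41 and 12.32 at day 3, and the dimmer one 6.54, 5.98 and 5.82 at day 5, against 6.73, 6.63 and 6.97 at day 3. The 1 call of Top2a, a fall of 0.39 between day 3 and day 5 in their mean (adjusted p = 0.014, limma), was lost with the brighter probe set or without day 3 or day 5 replicate 3 (highest adjusted p 0.13).

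**Figure D5:**
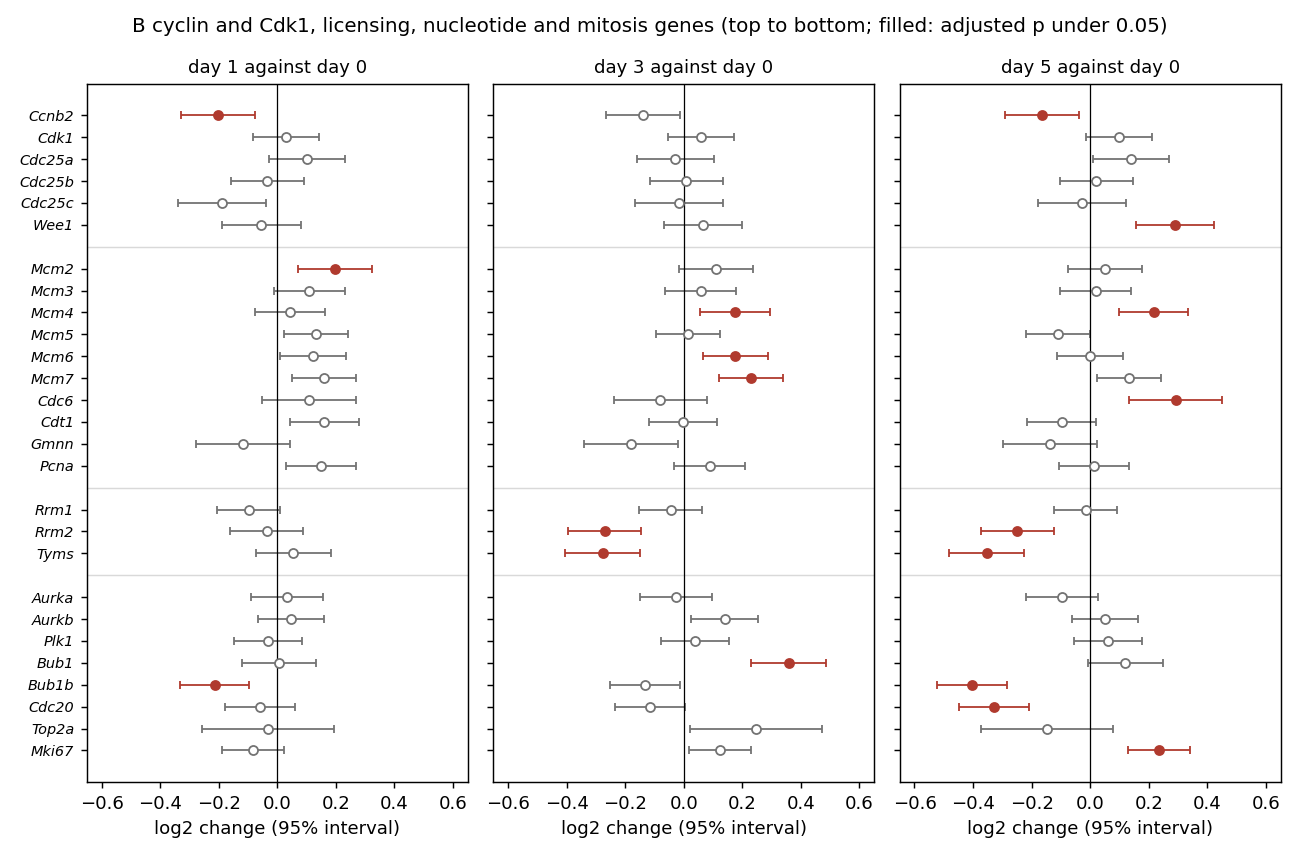
Log2 change against day 0 (x axis) with its 95% interval (bars) for the B cyclin and Cdk1, licensing, nucleotide and mitosis genes (rows, top to bottom) at days 1, 3 and 5. Filled red points passed the limma adjusted p of 0.05. Nearly all points lie within 0.4 of zero, and the lowest at day 5 are Bub1b (-0.40), Tyms (-0.35) and Cdc20 (-0.33).

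Calls were also counted by promoter letters, as a description with no test, beside 17.4% higher and 17.6% lower over all genes at day 5. The 14 genes with an E2F match had 5 higher and 1 lower at day 5, and the 28 without had 4 and 9. A gene without a match lacked only the exact letters searched in its window. Whether E2f factors control it was not tested. The 17 genes with CHR letters had 3 higher and 6 lower at day 5, and the 25 without had 6 and 4. Median log2 changes at day 5 were 0.12 with an E2F match and 0.00 without, and 0.02 both with and without CHR letters. Of the genes printed above, Mcm6, with E2F matches, and Cdk1, with E2F and CHR letters, were within 0.10 of their day 0 level at day 5. E2f7, with an E2F match, was 0.41 above it, and Cdc20 and E2f8, with CHR letters, were 0.33 and 0.43 below it. Other genes went the other way. E2f2, the 1 lower gene with an E2F match, was 0.27 below day 0, and Mki67, 1 of the 3 higher genes with CHR letters, was 0.24 above it.

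A wider list of 39 other replication genes had 7 higher (17.9%) and 0 lower at day 1, against 6.45% and 4.48% of all genes. At day 3, 9 were higher (23.1%) and 6 lower (15.4%), against 13.5% and 13.1% of all genes. At day 5, 6 were higher (15.4%, against 17.4% of all genes) and 14 lower. At day 5 the share lower was 35.9% against 17.6% of all genes, with a median log2 change of -0.05 against -0.02. Its 4 genes with the smallest F test p were Rpa2 (single-strand DNA binding, 0.37, 0.07 and -0.19 at days 1, 3 and 5), Pold2 (a subunit of DNA polymerase delta, 0.33, 0.20 and -0.28), Cdc7 (the origin-firing kinase, 0.02, 0.48 and 0.12) and Orc2 (origin recognition, -0.09, -0.37 and -0.50). Rpa2 and Pold2 were called higher at day 1 and lower at day 5, and Orc2 was called lower at days 3 and 5. The day 5 call of Rpa2 was lost without day 5 replicate 3.

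Of 34 other mitosis genes, 1 was higher (2.9%) and 6 lower (17.6%) at day 1, against 6.45% and 4.48% of all genes. At day 3, 3 were higher (8.8%) and 6 lower (17.6%), against 13.5% and 13.1% of all genes. At day 5, 1 was higher (2.9%) and 10 lower (29.4%), against 17.4% and 17.6%, with a median log2 change of -0.03 against -0.02. The 4 with the smallest F test p were Ncapd2 (a condensin subunit, -0.16, 0.20 and 0.12 at days 1, 3 and 5), Aspm (a spindle pole protein, -0.39, -0.27 and -0.36), Anln (anillin, -0.19, -0.02 and 0.13) and Cit (citron kinase, -0.07, 0.20 and 0.26). Aspm was lower on every day, and Cit was higher at days 3 and 5, the day 3 call being lost without any 1 array of day 0 or day 3.

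Of 25 other cycle regulators, 1 was higher (4.0%) and 0 lower at day 1, against 6.45% and 4.48% of all genes. At day 3, 4 were higher (16.0%) and 2 lower (8.0%), against 13.5% and 13.1% of all genes. At day 5, 5 were higher and 7 lower. The day 5 share lower was 28.0% against 17.6% of all genes, and the share higher, 5 of 25, was near their 17.4%. Cdkn1c, encoding the Cip/Kip inhibitor p57, was 0.98 higher at day 1 (adjusted p = 1e-06), 0.40 at day 3 and 0.16 at day 5, a peak on the day of the Ccnd1 peak. Ccng2, an atypical cyclin made in cells leaving the cycle, was 1.19 higher at day 3 (adjusted p = 8.6e-07) and 0.67 higher at day 5, with its highest arrays on the day of the Myb peak. Chek2, a DNA damage checkpoint kinase, and Tfdp2, a dimer partner of E2f factors, were lower at day 5 alone, by 0.58 and 0.53 (adjusted p = 1.2e-05 and 1.3e-05, limma).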

How the data were processed

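Total RNA of 12 cultures, 3 biological replicates for each of 4 days, was hybridized to Affymetrix Mouse Gene 1.0 ST arrays. The authors normalized the arrays by RMA in Affymetrix Expression Console (version not given in the sources used here) and deposited 1 log2 value per probe set and array, running from 1.61 to 14.69. No further scaling was applied. The number of arrays limits the precision.

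Of 35557 probe sets, 21789 had 1 symbol in the platform annotation, 1621 several and 12147 none. Values of probe sets with 1 symbol were averaged per gene, giving 19938 genes. Ccnb1, Cdkn1a and Fbn1 had none and are not analysed here. Genes were tested in 1 limma 3.58.1 model (R 4.3.3) with a mean per day, 8 residual and 4.63 prior degrees of freedom, and adjustment by Benjamini and Hochberg over all genes. For 1 gene alone, 3 arrays against 3 allow no exact two-sided permutation p below 0.1. The test was also run on simulated data, with results not given here. Promoter windows were RefSeq sequences of GRCm38.p6. Tables and plots used Python 3.11.15, pandas 2.3.3 and matplotlib 3.10.9.

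Array values are printed for up to 3 genes per role with the smallest F test p, for genes past 2-fold against day 0 and for genes called against most of their role. The members and the wider and marker lists were chosen with earlier results of these data known. Replicate numbers of the labels did not pair the arrays, since same-numbered deviations correlated at -0.17 to 0.071. The alternatives were the brightest probe set, every probe set, dim genes left out, trended robust variance, array weights, quantile normalization, equal medians, a replicate block, the 2 days alone, and each array left out.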

Additional observations from a re-analysis of the deposited data

How the results depend on the processing

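No call of a member changed direction under any alternative run. Calls kept under every alternative were 2 of 8 at day 1 (Ccnd1 and Mybl2), 15 of 18 at day 3 and 20 of 24 at day 5 against day 0, 10 of 15 at day 3 against day 1 and 11 of 17 at day 5 against day 3. The count of members higher at day 1 (4) became 7 without dim genes, 10 with a trended robust variance, 7 with array weights, 2 with the replicate block and 1 with every probe set tested, and ran between 1 and 4 as single arrays were left out. The count lower at day 1 (4) became 2 with every probe set and ran between 1 and 5 without single arrays. With a trended robust variance, 13 members were lower at day 3 in place of 8 and 8 higher at day 3 against day 1 in place of 5, and quantile normalization also gave 8. Members lower at day 3 against day 1 (10) were 6 with every probe set and between 6 and 10 without single arrays, and those lower at day 5 against day 3 (7) were between 4 and 7, the lowest without day 5 replicate 3. The methods' one-way analysis of variance with Bonferroni adjustment and a 2-fold range passed 0 members, against 34 by the F test, and 420 genes in all against 9083, and with Benjamini and Hochberg adjustment it passed 8555 genes. The replicate block gave 1069 higher and 773 lower genes at day 1, against 1286 and 894, and leaving out single arrays gave between 734 and 1384 higher and between 502 and 971 lower, both lowest without day 1 replicate 3. Under the replicate numbers, 2 of the 12 arrays correlated best with an array of their own number. The causes were not tested. Precision is limited by 3 arrays a day, and by dim signals such as that of Ccna1.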
